A study of Mus musculus with 18 samples.

Results

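*Tmem151b*, *Znrf1*, *Pcsk1n*, *Pisd-ps1*, *Prph* and *Zmat1* are 6 of the 15329 genes listed in a hippocampal RNA-seq data set that compares wild-type mice (WT) with mice in which *Ccny* was knocked out (KO). They were picked from the measured values as genes outside the immediate early class whose level was higher in untrained KO mice than in untrained WT mice, and for most of them also higher after WT mice had learned. *Ccny* encodes cyclin Y, a cyclin found at synapses, and how the KO allele was made is not given in the sources used here. Each of 6 groups held 3 mice of strain C57BL/6J, aged 8 to 10 weeks, with 1 library of hippocampal RNA per numbered sample. Mice of the maze experiments were male, according to the methods. Samples are called mice below, and p-values measure the spread between these samples. WT_Basal and KO_Basal mice had no training, WT_OL and KO_OL mice had original learning in the Morris water maze (finding a hidden platform), and WT_RL and KO_RL mice had original learning followed by reversal learning (finding the platform after it was moved). The samples were whole hippocampal tissue, so fewer cells of a type and less RNA per cell cannot be told apart.

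The 6 genes have unrelated roles. *Tmem151b* encodes a transmembrane protein found in brain. *Znrf1* encodes a RING-type ubiquitin ligase that marks AKT for degradation in injured axons. *Pcsk1n* encodes proSAAS, an inhibitor of prohormone convertase 1, the protease that cuts peptide hormone and neuropeptide precursors in dense-core granules. *Pisd-ps1* is a transcribed pseudogene of *Pisd*, the mitochondrial decarboxylase that turns phosphatidylserine into phosphatidylethanolamine. *Prph* encodes peripherin, an intermediate filament protein of peripheral neurons and of central neurons that project to the periphery. *Zmat1* encodes a matrin-type zinc finger protein.

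On GRCm38 (mm10), *Tmem151b* lies at chr17:45541952-45549677 on the minus strand, *Znrf1* at chr8:111536097-111626030 on the plus strand and *Pcsk1n* at chrX:7919822-7924410 on the plus strand. *Pisd-ps1* lies at chr11:3125904-3131004 on the plus strand, *Prph* at chr15:99055174-99058978 on the plus strand and *Zmat1* at chrX:134971372-135009209 on the minus strand. Upstream sequence of 5 of the 6 genes was matched by symbol in RefSeq (GRCm38.p6), and *Pisd-ps1* had no entry. The window of *Znrf1* overlaps an annotated exon and is not printed. The other windows, the 250 bases before each start site, are shown 5′ to 3′ on the strand of the gene so that the promoters of genes with different patterns across the groups can be read side by side. They lie at chr17:45549678-45549927 (minus strand), chrX:7919572-7919821 (plus), chr15:99054924-99055173 (plus) and chrX:135009210-135009459 (minus), in the order printed. Capitals mark the letters of a GC box, an AP-1 motif or a TATA box, each searched on both strands.
Tmem151b: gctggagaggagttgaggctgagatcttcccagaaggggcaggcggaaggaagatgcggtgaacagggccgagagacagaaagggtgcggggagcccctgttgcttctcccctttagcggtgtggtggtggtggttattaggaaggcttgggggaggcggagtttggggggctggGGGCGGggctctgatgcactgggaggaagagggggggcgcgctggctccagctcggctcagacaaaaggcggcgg
Pcsk1n: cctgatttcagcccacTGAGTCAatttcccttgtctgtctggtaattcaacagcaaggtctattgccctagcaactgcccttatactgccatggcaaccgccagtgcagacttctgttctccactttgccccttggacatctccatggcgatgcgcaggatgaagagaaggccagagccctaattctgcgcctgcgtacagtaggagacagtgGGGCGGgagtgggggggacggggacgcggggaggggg
Prph: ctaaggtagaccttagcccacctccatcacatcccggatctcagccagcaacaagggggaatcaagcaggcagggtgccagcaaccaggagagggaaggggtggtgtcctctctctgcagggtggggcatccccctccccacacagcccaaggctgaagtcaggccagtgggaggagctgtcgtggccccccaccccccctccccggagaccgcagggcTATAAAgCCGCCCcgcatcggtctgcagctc
Zmat1: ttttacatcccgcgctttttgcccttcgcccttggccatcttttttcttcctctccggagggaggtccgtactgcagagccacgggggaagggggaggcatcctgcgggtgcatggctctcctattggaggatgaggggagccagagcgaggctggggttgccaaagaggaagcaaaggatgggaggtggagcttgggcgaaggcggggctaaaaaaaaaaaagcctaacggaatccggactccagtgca

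The letters of the GC box, GGGCGG, stood in the windows of *Tmem151b*, *Znrf1*, *Pcsk1n* and *Prph*, and in 32.9% of 27025 windows of the same length, 1 per gene symbol. *Pcsk1n* held the AP-1 letters TGACTCA on the reverse strand 227 bases before its start, against 4.43% of all windows. *Prph* held TATAAA 25 bases before its start, against 13% of all windows. The cAMP response letters TGACGTCA (1.62% of windows) and the EGR letters GCGTGGGCG (0.54%) stood in none of the 5 windows, and the *Zmat1* window held none of the letters searched. No other searched motif was shared by *Tmem151b* and *Pcsk1n*.

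Levels are given as CPM, the reads of a gene per fixed number of reads in the library, after TMM normalization, which adjusts for composition. Differences are given between group means of log2(CPM + 1), with the standard error (SE) from 1 fit over all libraries, and the fold on that scale understates the change of genes at few CPM. The libraries held 29248557 to 37915576 reads on listed genes, so 1 read was worth 0.0274 to 0.0333 CPM. *Ccny* was at 74.0 to 95.8 CPM in the 9 KO mice and at 107 to 158 CPM in the 9 WT mice, without overlap. Summed CPM of 11 hippocampal neuron markers lay between 5446 and 7175 in all libraries. Per kilobase of the longest transcript, *Pcsk1n* had the highest mean level (177 CPM per kb), followed by *Pisd-ps1* (116), *Tmem151b* (37.9), *Znrf1* (23.6), *Zmat1* (3.09) and *Prph* (1.06).

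**Figure D1:**
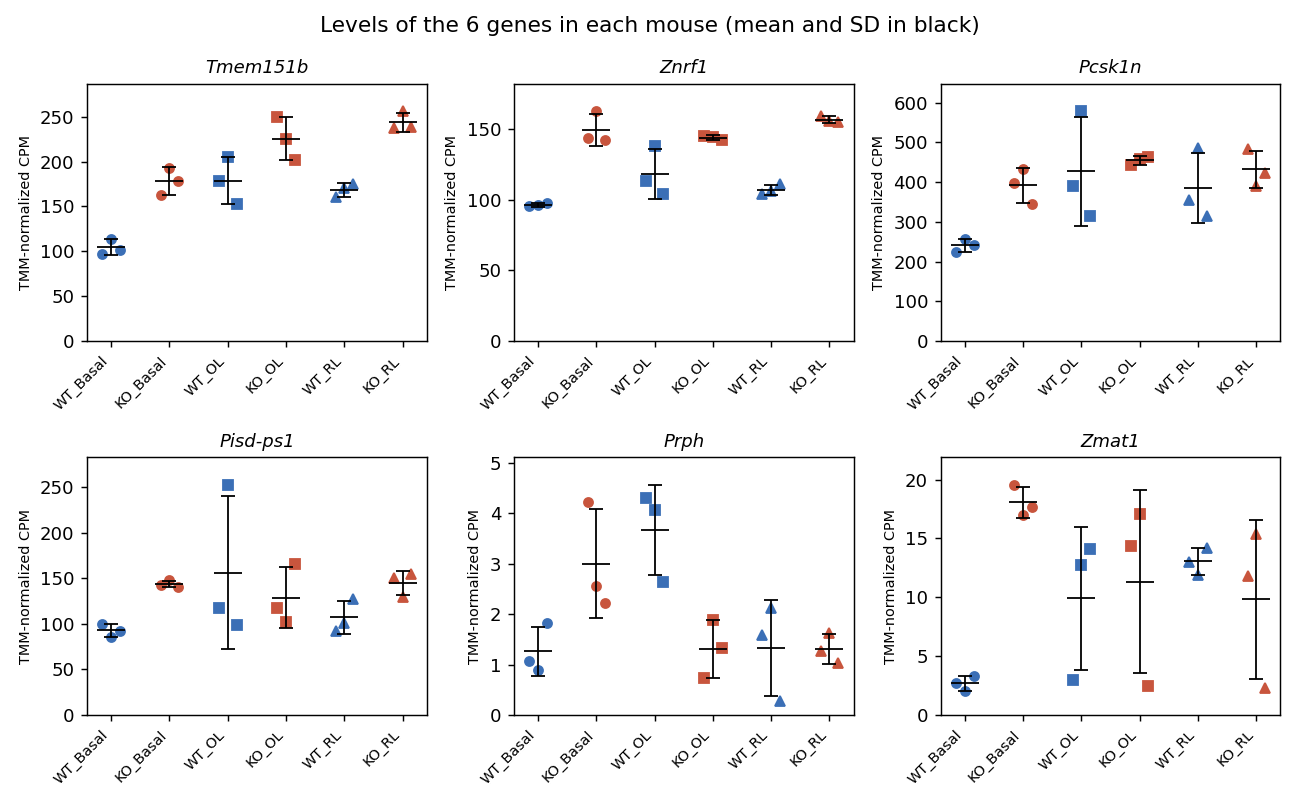
TMM-normalized CPM (y axis, from 0) of each of the 6 genes in each mouse, by group (x axis). Blue points are WT and red points KO, circles are Basal, squares OL and triangles RL, and black bars give the mean and SD of 3 mice. WT_Basal has the lowest mean for each of the 6 genes.

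*Znrf1*, the AKT ubiquitin ligase, separated the genotypes in every training state. The WT mice had 95.3, 96.3 and 98.1 CPM in WT_Basal, 113, 138 and 104 CPM in WT_OL, and 104, 106 and 111 CPM in WT_RL. The KO mice had 144, 163 and 142 CPM in KO_Basal, 145, 145 and 142 CPM in KO_OL, and 159.6, 156 and 155 CPM in KO_RL. All 9 KO mice were above all 9 WT mice, which includes groups whose values chose the genes. The share of all genes with such a split over 18 mice was not counted. Within a training state, KO mice lay above WT mice without overlap for 7.05% (untrained), 7.61% (original learning) and 3.99% (reversal learning) of all genes. By mean level the groups ran WT_Basal, WT_RL, WT_OL, KO_OL, KO_Basal and KO_RL, and neighbours overlapped except WT_Basal with WT_RL and WT_OL with KO_OL.

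The contrast between KO and WT mice after reversal learning, which the choice of genes did not use, tests whether the difference was still present in mice trained to the end. For *Znrf1* KO_RL exceeded WT_RL by 0.55 (SE 0.0825, 95% interval 0.37 to 0.72), that is 157 ± 2.37 against 107 ± 3.58 CPM (SD, n = 3). *Znrf1* ranked 1 of 15329 genes by p-value in this contrast, ahead of *Ccny* itself. Its adjusted p of 0.0821 (limma, Benjamini-Hochberg over all genes) did not pass the threshold of 0.05, and neither did that of *Ccny* (0.0821, difference -0.66). The exact permutation p of *Znrf1* was 0.1, the smallest that 3 mice against 3 allow. With log2 values corrected for GC content the difference was 0.54 and the adjusted p 0.0368 (limma), and without the first WT_RL mouse it was 0.53 with an adjusted p of 0.018 (limma). In the other settings the call did not change, and over all settings the adjusted p ran from 0.018 to 0.572.

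The remaining differences of *Znrf1* share groups with its choice and are descriptions. KO_Basal exceeded WT_Basal by 0.62 (SE 0.0825) and KO_OL exceeded WT_OL by 0.29. WT_OL exceeded WT_Basal by 0.28, which was 1.22-fold, and the difference was 0.17 without the second WT_OL mouse, the highest of its group. Within KO mice, KO_OL stood at -0.05 from KO_Basal and KO_RL at 0.07. For *Znrf1* the difference between untrained genotypes was larger than that of WT_OL from WT_Basal. The choice asked the first of every gene and the second only of most, so nothing is read from this order.

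*Tmem151b* was higher in KO mice and, in both genotypes, higher after training. WT mice had 97.0, 114 and 102 CPM in WT_Basal, 178, 206 and 153 CPM in WT_OL, and 160.1, 171 and 175 CPM in WT_RL. KO mice had 163, 193 and 179 CPM in KO_Basal, 249.8, 225 and 202 CPM in KO_OL, and 237, 256 and 238 CPM in KO_RL. Every WT_Basal mouse lay below every other mouse, and every KO_RL mouse lay above every WT mouse. WT_RL, KO_Basal and WT_OL, next in order of mean level, overlapped each other, and KO_OL overlapped both WT_OL and KO_RL.

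In the test after reversal learning *Tmem151b* was 244 ± 10.6 CPM in KO_RL and 169 ± 7.68 CPM in WT_RL (SD, n = 3), a difference of 0.53 (SE 0.104, 95% interval 0.31 to 0.75). It ranked 4 of 15329 genes by p-value, its adjusted p was 0.322 (limma; 0.113 to 0.999 over the other settings) and its exact permutation p was 0.1. As descriptions, KO_Basal exceeded WT_Basal by 0.77 (SE 0.104), WT_OL exceeded WT_Basal by 0.76 and WT_RL exceeded WT_Basal by 0.69. Among KO mice, KO_OL exceeded KO_Basal by 0.34 and KO_RL exceeded it by 0.45. Both differences from untrained mice were thus smaller among KO mice than among WT mice. From original to reversal learning, KO_RL stood at 0.12 from KO_OL and WT_RL at -0.07 from WT_OL. The choice favoured low WT_Basal and high KO_Basal values, so the genotypes were not tested against each other in these changes.

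*Pcsk1n*, the convertase inhibitor, was low in WT_Basal and high everywhere else. WT mice had 225, 256 and 241 CPM in WT_Basal, 389, 578 and 314 CPM in WT_OL, and 356, 485 and 316 CPM in WT_RL. KO mice had 398, 432 and 345 CPM in KO_Basal, 442, 459 and 464 CPM in KO_OL, and 483, 389.9 and 424 CPM in KO_RL. All WT_Basal mice lay below all other mice, while the other 5 groups overlapped one another except KO_OL with KO_Basal. After reversal learning the genotypes overlapped, with a difference of 0.18 (SE 0.179, 95% interval -0.20 to 0.56, adjusted p = 0.986 by limma, exact permutation p = 0.5). As descriptions, KO_Basal exceeded WT_Basal by 0.70 (SE 0.179), WT_OL exceeded it by 0.78 and WT_RL by 0.65, and KO_OL exceeded WT_OL by 0.14. The second mouse of WT_OL was the highest of all mice, and without it WT_OL exceeded WT_Basal by 0.54.

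*Pisd-ps1*, the pseudogene, was more variable. WT mice had 99.99, 85.9 and 92.6 CPM in WT_Basal, 117, 253 and 99.1 CPM in WT_OL, and 92.6, 101.5 and 127 CPM in WT_RL. KO mice had 143, 148 and 141 CPM in KO_Basal, 118, 102 and 166 CPM in KO_OL, and 150.3, 129 and 154 CPM in KO_RL. Untrained KO mice lay above untrained WT mice, but WT_OL overlapped WT_Basal, with the second WT_OL mouse far above the other WT mice. WT_OL exceeded WT_Basal by 0.62 (SE 0.248), and by 0.21 without that mouse. KO_Basal exceeded WT_Basal by 0.63, and leaving out any 1 mouse kept this between 0.58 and 0.68. KO_RL exceeded WT_RL by 0.44 (SE 0.248, 95% interval -0.09 to 0.96, adjusted p = 0.986 by limma, exact permutation p = 0.1), with no overlap between the mice.

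The copies of *Pisd-ps1* share sequence. The authors counted genes with the count module of STAR, and the methods do not describe how reads common to such copies were treated. Of the 31-base words of *Pisd-ps1*, 21.7% occur in *Pisd* and 8.2% in *Pisd-ps2*, a second pseudogene. *Pisd-ps2* followed *Pisd-ps1* closely, with a Pearson r of 0.97 over 18 libraries and 0.98 after group means were removed. It had 16.5 ± 0.305 CPM in WT_Basal, 24.5 ± 0.246 CPM in KO_Basal and 27.8 ± 12.01 CPM in WT_OL, where its highest mouse had 41.6 CPM. The parent gene *Pisd* stayed between group means of 64.0 and 72.3 CPM, and it was 0.14 higher in KO_Basal than in WT_Basal (SE 0.0792, adjusted p = 0.994 by limma).

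*Prph*, peripherin, was near the lower end of measurement. WT mice had 1.07, 0.899 and 1.81 CPM in WT_Basal, 4.30, 4.06 and 2.65 CPM in WT_OL, and 1.59, 2.12 and 0.272 CPM in WT_RL. KO mice had 4.23, 2.56 and 2.21 CPM in KO_Basal, 0.736, 1.88 and 1.32 CPM in KO_OL, and 1.27, 1.62 and 1.03 CPM in KO_RL. KO_Basal and WT_OL were the 2 high groups, which overlapped each other and did not overlap WT_Basal, KO_OL, WT_RL or KO_RL. The 4 low groups overlapped one another. Mean CPM was 2.38 times as high in KO_Basal as in WT_Basal and 2.91 times as high in WT_OL, and the differences on the log2(CPM + 1) scale were 0.81 and 1.05 (SE 0.289 for both).

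Group means of *Prph* ran in opposite directions from untrained to original-learning mice in the 2 genotypes. The 2 high groups, KO_Basal and WT_OL, are groups whose high values the choice favoured, so this pattern is a description. WT_OL was 1.05 above WT_Basal, while KO_OL stood at -0.79 from KO_Basal. After reversal learning WT_RL stood at -1.08 from WT_OL and at -0.03 from WT_Basal. KO_RL and WT_RL differed by 0.08 (SE 0.289, 95% interval -0.53 to 0.69, adjusted p = 0.989 by limma, exact permutation p = 0.9). The sign of this last difference changed when CPM was floored at 1 (-0.22) and without the third WT_RL mouse (-0.31).

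Markers of neurons outside the hippocampus were read beside *Prph*. Whether the neurons of each list express *Prph* was not examined. Of 15 hypothalamic markers 12 were listed, and their summed CPM per mouse ranged over 8.31 to 12.4 (WT_Basal), 8.53 to 8.96 (WT_OL), 7.94 to 17.2 (KO_OL), 7.61 to 14.0 (WT_RL) and 3.51 to 9.95 (KO_RL). In KO_Basal it was 134 in the first mouse, which also had the highest *Prph* of its group, and 8.39 and 5.50 in the other mice. That mouse had 52.6 CPM of *Pmch* and 24.99 CPM of *Hcrt*, which were at 0 to 1.11 CPM in the other 5 untrained mice. Without it KO_Basal exceeded WT_Basal in *Prph* by 0.60. In WT_OL, the other high group, the summed markers were within the range of WT_Basal. Of 10 cholinergic and monoamine markers 9 were listed, with summed CPM of 8.16 to 18.6 and 8.30 to 21.4 in untrained WT and KO mice, 6.59 to 8.69 and 5.21 to 17.5 after original learning, and 6.17 to 7.18 and 5.83 to 14.5 after reversal learning. The 10 thalamic and habenular markers, all listed, summed to 79.6 to 97.8 and 83.1 to 119 CPM in the same order for untrained mice, 88.3 to 109.6 and 77.6 to 150.2 after original learning, and 84.1 to 221 and 82.4 to 99.8 after reversal learning. What part these cells had in the *Prph* values was not tested. No gene of these 3 lists passed the test in any of the 4 contrasts tested (limma).

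*Zmat1* took 2 separate levels rather than a graded one. WT mice had 2.73, 2.03 and 3.28 CPM in WT_Basal, 2.94, 12.7 and 14.1 CPM in WT_OL, and 13.0, 11.9 and 14.2 CPM in WT_RL. KO mice had 19.6, 17.03 and 17.7 CPM in KO_Basal, 14.4, 17.1 and 2.47 CPM in KO_OL, and 11.8, 15.4 and 2.30 CPM in KO_RL. The 3 WT_Basal mice, the first WT_OL mouse, the third KO_OL mouse and the third KO_RL mouse formed the low level, and no mouse lay between 3.28 and 11.8 CPM. The high level held 12 mice of both genotypes and all training states except WT_Basal.

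**Figure D2:**
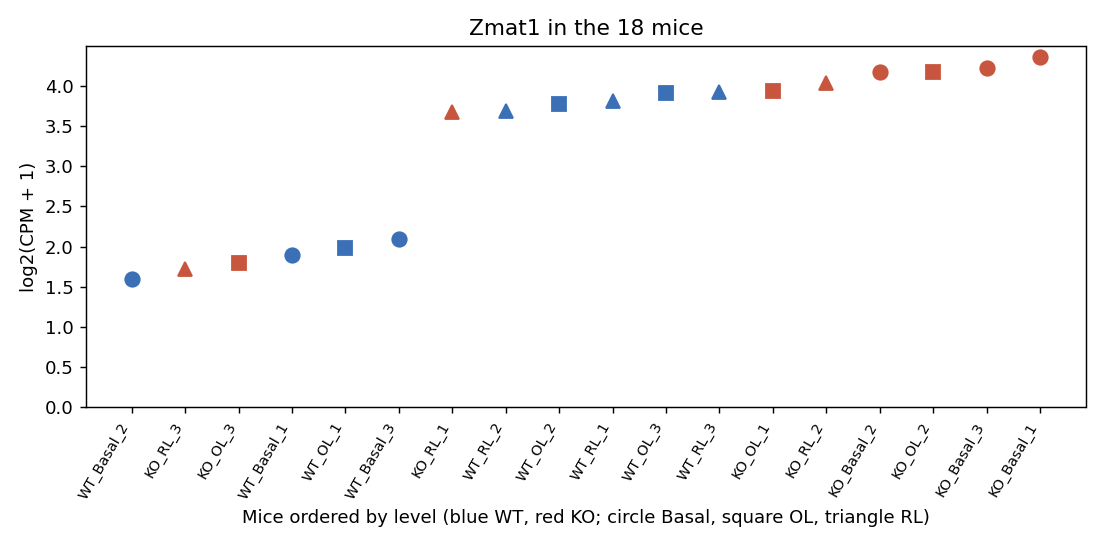
log2(CPM + 1) of *Zmat1* (y axis, from 0) in the 18 mice ordered by level (x axis). Blue is WT and red KO, circles are Basal, squares OL and triangles RL. The 6 low mice and the 12 high mice are separated by an empty gap of 1.58.

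The gap between the levels of *Zmat1* was 1.58 on the log2(CPM + 1) scale, wider than the spread within the low mice (0.50) or the high mice (0.68). The choice of *Zmat1* favoured low WT_Basal and high KO_Basal values, which can by themselves put 3 libraries on each side of a gap. The next count is therefore a description. Among 13978 genes with a mean of at least 1 CPM, 8 had a gap this wide with 3 or more libraries on each side. The median largest gap was 0.0886. The other 7, named after their values were seen, were *Ttr*, *F5*, *Aqp1*, *Kcne2*, *Slc4a5*, *Tmem72* and *Adora2a*. *Ttr*, *Aqp1*, *Kcne2*, *Slc4a5* and *Tmem72* are in the list of choroid plexus markers. *Zmat1* correlated with the summed choroid markers at r = -0.37 over 18 libraries. The 23 listed genes within 1 Mb of *Zmat1* on the X chromosome correlated with it at r of -0.29 to 0.41 over the same libraries.

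Group means of *Zmat1* depend on how many mice of each level a group held. KO_Basal, all high, exceeded WT_Basal, all low, by 2.39 (SE 0.612), and the ratio of mean CPM was 6.75. WT_OL, with 1 low mouse, exceeded WT_Basal by 1.36, and by 1.98 without that mouse. WT_RL exceeded WT_Basal by 1.95, whereas KO_RL stood at -1.11 from KO_Basal. KO_RL stood at -0.67 from WT_RL (SE 0.612, 95% interval -1.96 to 0.63, adjusted p = 0.986 by limma, exact permutation p = 0.6), and at 0.04 without its low mouse.

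**Figure D3:**
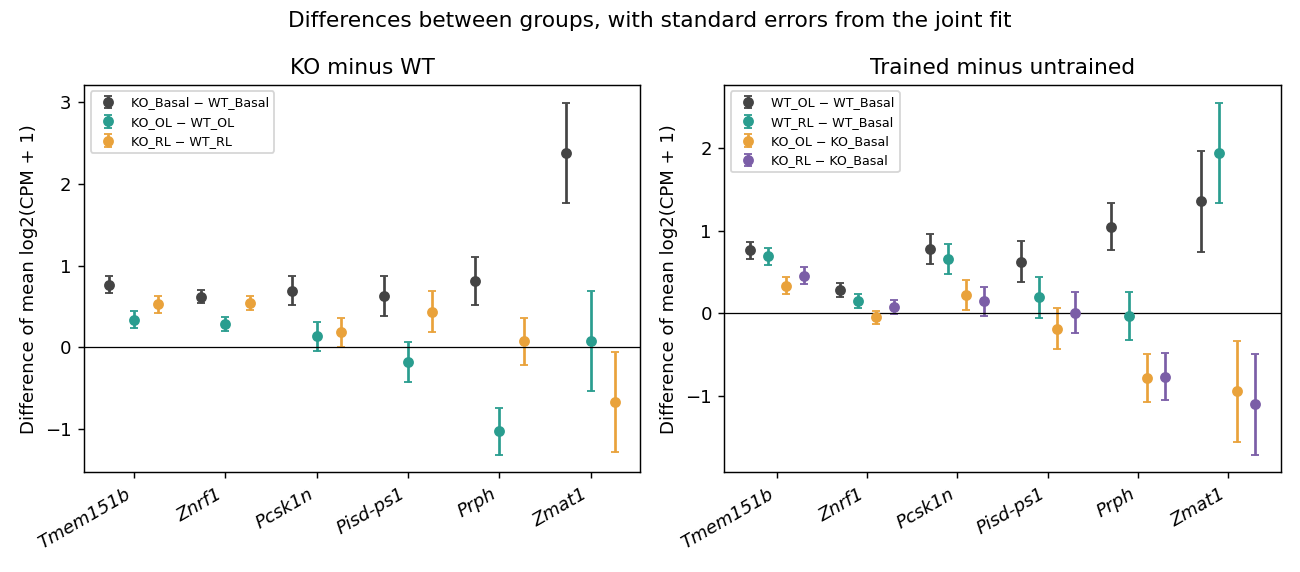
Differences of mean log2(CPM + 1) (y axis) for each gene (x axis), KO minus WT in each training state on the left and trained minus untrained within a genotype on the right. Points are differences and bars are SE from the joint fit of 18 libraries. *Tmem151b*, *Znrf1* and *Pcsk1n* lie above 0 in all 3 genotype differences, while *Pisd-ps1*, *Prph* and *Zmat1* change sign.

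Counted over the genes, all 6 were higher in KO_Basal than in WT_Basal without overlap between mice, as was the case for 7.05% of all genes. In WT_OL against WT_Basal 4 of the 6 were (13.1% of all genes), the exceptions being *Pisd-ps1* and *Zmat1*. The values of these 2 contrasts chose the genes, so nothing is read from the counts. The genes nearest to a 1.5-fold difference (0.58 on the log2 scale) on either side were sought among some genes only. These were higher at an unadjusted p under 0.05 (limma) and were not immediate early genes. They were *Esyt3* at 0.59 and *Prkg2* at 0.58 in KO_Basal against WT_Basal, and *Phospho1* at 0.59 and *Doc2a* at 0.58 in WT_OL against WT_Basal. *Znrf1* at 0.28 lies under that size after WT learning.

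In KO_RL against WT_RL, *Tmem151b*, *Znrf1* and *Pisd-ps1* were higher without overlap, which is 3 of 6 genes against 3.99% of all genes. None of the 6 passed the test, and 0% of 15329 genes did by limma. At an unadjusted p under 0.05 there were 756 genes, and limma-voom on the recovered reads also called 0. Leaving out the first WT_RL mouse raised the count to 59 genes, of which 1 was of the 6 (*Znrf1*).

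In KO_RL against KO_OL, which compares reversal with original learning within KO mice, none of the 6 passed the test by limma, against 0.0196% of all genes. At an unadjusted p under 0.05 there were 737 genes, of which limma called 3 and limma-voom 2 after adjustment. *Znrf1* was the only one of the 6 higher without overlap (6.91% of all genes), with a difference of 0.12 (95% interval -0.05 to 0.30, adjusted p = 0.9996 by limma, as for the other 5 genes, exact permutation p = 0.1). The other differences were 0.12 for *Tmem151b* (95% interval -0.10 to 0.34), -0.08 for *Pcsk1n* (-0.46 to 0.30), 0.19 for *Pisd-ps1* (-0.33 to 0.72), 0.02 for *Prph* (-0.59 to 0.63) and -0.16 for *Zmat1* (-1.46 to 1.13), and their exact permutation p-values ran from 0.3 to 1.

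The contrasts that share a group with the choice are given side by side. In KO_OL against KO_Basal, *Tmem151b* and *Pcsk1n* were higher without overlap (24.2% of all genes) and *Prph* was lower (24.6%). In KO_RL against KO_Basal, *Tmem151b* was higher (22.7%) and *Prph* and *Zmat1* were lower (22.6%). In WT_RL against WT_Basal, *Tmem151b*, *Znrf1*, *Pcsk1n* and *Zmat1* were higher (17.6%). In KO_OL against WT_OL, *Znrf1* was higher (7.61%) and *Prph* lower (8.89%), and in WT_RL against WT_OL *Prph* was lower (5.34%).

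Base composition differed between libraries in step with training. The difference between the GC-richest and the GC-poorest quartile of genes, as the median log2 departure from the mean of each gene, was -0.28 to -0.17 in the 6 untrained libraries and -0.02 to 0.33 in the 12 trained libraries, and it was highest in the second WT_OL library (0.33). The transcripts of *Tmem151b* (60.4% GC, percentile 96.1 of listed genes), *Prph* (60.8%, percentile 96.8), *Pcsk1n* (57.3%), *Pisd-ps1* (55.3%) and *Znrf1* (54.3%) are above the median of 49.8%, and that of *Zmat1* (41.0%, percentile 8.71) is below it. Over the 18 libraries, which share training groups with it, this measure correlated with *Pcsk1n* at r = 0.77, *Tmem151b* at 0.66, *Pisd-ps1* at 0.44, *Znrf1* at 0.29, *Zmat1* at 0.11 and *Prph* at 0.01. With GC content corrected in each library, WT_OL exceeded WT_Basal by 0.58 in *Tmem151b*, 0.64 in *Pcsk1n*, 0.19 in *Znrf1*, 0.51 in *Pisd-ps1*, 0.86 in *Prph* and 1.57 in *Zmat1*. Untrained libraries of both genotypes had like base composition, and the corrected differences of KO_Basal from WT_Basal were 0.74, 0.68, 0.62, 0.62, 0.78 and 2.40 in the same order.

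**Figure D4:**
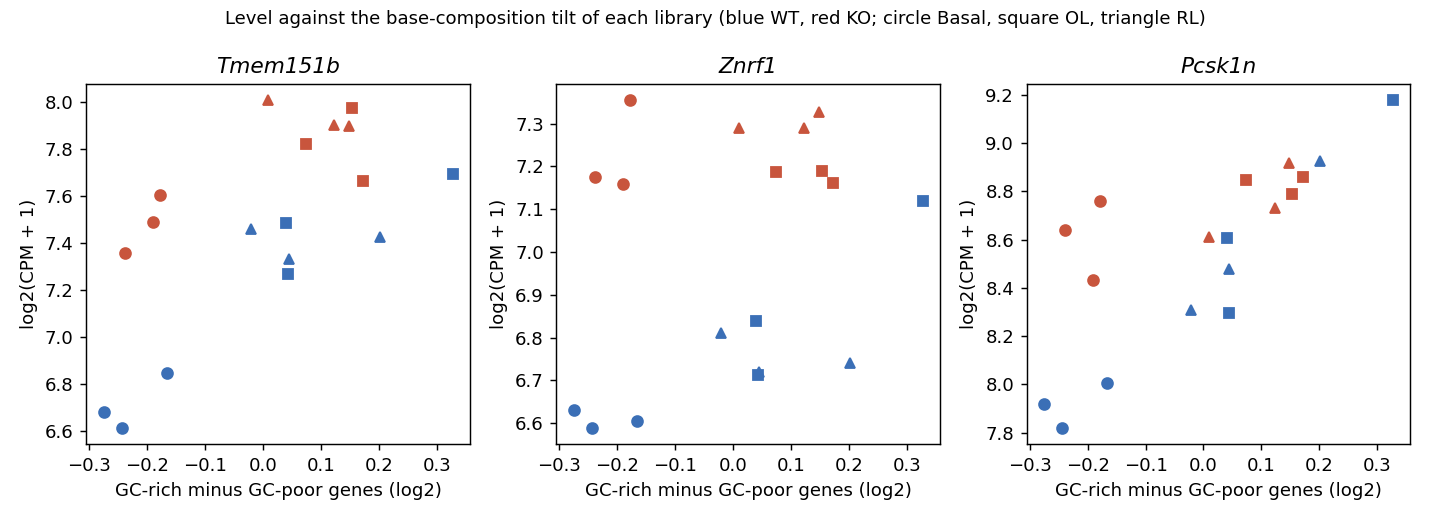
log2(CPM + 1) of *Tmem151b*, *Znrf1* and *Pcsk1n* (y axis) against the difference between GC-rich and GC-poor genes in each library (x axis, log2). Each point is 1 of 18 mice, blue WT, red KO, circles Basal, squares OL and triangles RL. The 6 untrained libraries lie to the left, and at like x values KO mice lie above WT mice for *Znrf1*.

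Markers of choroid plexus varied widely between mice. The 12 markers, all listed, summed to 1439 to 6462 CPM in untrained WT mice and 222 to 1134 CPM in untrained KO mice. After original learning the sums were 3139 to 4907 (WT) and 3634 to 6969 CPM (KO), and after reversal learning 214 to 12709 and 2096 to 7669 CPM. The untrained genotypes did not overlap in this sum, although none of the 12 genes passed the test in the 4 contrasts tested (limma). Correlations of the sum with the 6 genes ran from -0.37 (*Zmat1* and *Prph*) to 0.13 (*Pisd-ps1*) over 18 libraries, and its part in the differences was not tested.

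Exons of other genes overlap 3 of the 6 on the opposite strand, and whether counting used the strand is not given in the sources used here. *Tmem151b* shares 729 exon bases with *Tcte1*, *Znrf1* shares 2246 with *Ldhd*, and *Pcsk1n* shares 135 with *Eras*, which is not among the listed genes. *Tcte1* had 2.20 CPM and *Ldhd* 10.3 CPM on average. In KO_RL against WT_RL *Tcte1* differed by 0.23 (SE 0.159, adjusted p = 0.986 by limma) and *Ldhd* by -0.05 (SE 0.122, adjusted p = 0.987 by limma).

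Across the 18 mice, whose values share the 6 groups, *Tmem151b*, *Znrf1* and *Pcsk1n* moved together. The Pearson r was 0.84 for *Tmem151b* with *Znrf1*, 0.84 for *Tmem151b* with *Pcsk1n* and 0.72 for *Znrf1* with *Pcsk1n*, and 0.74, 0.49 and 0.71 after group means were removed. *Pisd-ps1* correlated with these at 0.56 to 0.69. After group means were removed its r was 0.35 with *Tmem151b*, 0.76 with *Znrf1* and 0.57 with *Pcsk1n*. *Prph* and *Zmat1* correlated with the other genes at no more than 0.44, and with each other at 0.22. After group means were removed *Prph* with *Pcsk1n* had r = 0.49, the same as *Tmem151b* with *Pcsk1n*, and the other values of *Prph* and *Zmat1* ran from -0.18 to 0.23. The group differences that chose the genes are part of the r values over all mice. The second WT_OL mouse was the highest of its group in *Tmem151b*, *Znrf1*, *Pcsk1n* and *Pisd-ps1*, and r without it is not given.

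The genes most like each of the 6 were taken as the 3 with the highest r among 13972 others with a mean of at least 1 CPM. For *Tmem151b* they were *D17Wsu92e* (0.91), *Adrbk1* (0.90) and *Ptpn1* (0.88), and for *Pcsk1n* they were *Adrbk1* (0.91), *Dact3* (0.90) and *Pbx4* (0.88). For *Znrf1* they were *Nrsn1* (0.85), *Adra2c* (0.76) and *D17Wsu92e* (0.74). *Pisd-ps1* was followed by *Pisd-ps2* (0.97), *Nckap1l* (0.87) and *Aup1* (0.84), *Prph* by *Vill* (0.88), *Cbln1* (0.86) and *Ntsr1* (0.85), and *Zmat1* by *Gm10125* (0.82), *Eed* (0.70) and *Zbed4* (0.67). With group means removed r was 0.19 for *Ptpn1* with *Tmem151b* and 0.84 for *Dact3* with *Pcsk1n*. *Nrsn1*, which encodes a membrane protein of neuronal vesicles, had in untrained mice 263 ± 15.7 (WT) and 376 ± 27.5 CPM (KO), after original learning 345 ± 66.6 and 351 ± 29.8 CPM, and after reversal learning 276 ± 10.5 and 348 ± 12.2 CPM (SD, n = 3).

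Other genes of the pathways and families of the 6 were tested in 4 contrasts, and passing means an adjusted p under 0.05 by limma. In KO_Basal against WT_Basal (0.0196% of all genes called, 613 at an unadjusted p under 0.05 and 3 by limma-voom), KO_RL against WT_RL and KO_RL against KO_OL, no gene of the 5 partner lists passed. The lists are described for WT_OL against WT_Basal, in which 3.88% of all genes passed as higher and 5.62% as lower.

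Of 18 genes of prohormone processing and dense-core granules, around *Pcsk1n*, 1 rose after WT learning, none fell and 17 did not pass, with a median of -0.00, as over all genes tested. The gene that rose was *Vgf*, a granule peptide precursor, by 0.39 (SE 0.102, adjusted p = 0.0241 by limma), from 110.0 ± 12.7 to 145 ± 17.4 CPM (SD, n = 3). With GC corrected *Vgf* did not pass (0.17, adjusted p = 0.54 by limma) and *Pcsk1*, the protease that proSAAS inhibits, did (0.64, adjusted p = 0.0167 by limma). In the uncorrected test *Pcsk1* differed by 0.41 (adjusted p = 0.0748 by limma). In untrained KO mice, where *Pcsk1n* was 0.70 higher, *Pcsk1* differed by 0.07 (SE 0.139) and the list had a median of 0.06, against 0.01 over all genes.

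Of 15 genes of AKT and GSK3 signalling and axon degeneration, around *Znrf1*, 3 rose after WT learning, none fell and 12 did not pass, with a median of 0.13. *Dpysl2*, which encodes the microtubule-binding protein CRMP2, rose by 0.60 (adjusted p = 0.00609 by limma), *Nmnat2*, an axonal NAD-synthesizing enzyme, by 0.49 (adjusted p = 0.00332 by limma) and *Sarm1*, an axonal NAD-consuming enzyme, by 0.43 (adjusted p = 0.012 by limma). *Sarm1* did not pass with GC corrected (0.29, adjusted p = 0.228 by limma). In KO_RL against WT_RL, where *Znrf1* differed by 0.55, the largest difference in the list was 0.29 in *Map3k13* (adjusted p = 0.986 by limma), and the list had a median of 0.06.

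Of 11 genes of phosphatidylserine and phosphatidylethanolamine synthesis, around *Pisd-ps1*, 10 were listed, and 2 rose, 2 fell and 6 did not pass after WT learning, with a median of 0.08. *Pisd-ps2* rose by 0.65 (adjusted p = 0.0448 by limma) and *Pcyt2*, of phosphatidylethanolamine synthesis, by 0.24 (adjusted p = 0.0488 by limma). *Pisd-ps2* followed *Pisd-ps1* across libraries (r = 0.97), so its rise is not independent of the choice of *Pisd-ps1*. *Etnk1*, an ethanolamine kinase, fell by 0.51 (adjusted p = 0.0251 by limma) and *Cept1*, a choline and ethanolamine phosphotransferase, fell by 0.41 (adjusted p = 0.0123 by limma). With GC corrected, or without the second WT_OL mouse, 0 of the 10 passed by limma.

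Of 9 other intermediate filament genes, around *Prph*, none passed after WT learning by limma, and the list had a median of 0.19. *Vim* differed by 0.34 (adjusted p = 0.152 by limma) and *Nefm* by -0.30 (adjusted p = 0.174 by limma). In KO_Basal against WT_Basal *Des* had the largest difference, -0.58 (adjusted p = 0.994 by limma), and the list had a median of -0.13. Of 5 paralogs of *Tmem151b* and *Zmat1*, *Zmat3* rose by 0.50 (adjusted p = 0.0211 by limma), *Zmat2* fell by 0.33 (adjusted p = 0.00952 by limma) and 3 did not pass after WT learning, with a median of 0.07. With GC corrected *Zmat2* did not pass (-0.27, adjusted p = 0.14 by limma) and *Zmat3* did. *Tmem151a*, the paralog of *Tmem151b*, differed by -0.12 (adjusted p = 0.994 by limma) in KO_Basal against WT_Basal.

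Of 13 immediate early genes, which neuronal activity induces and which the choice excluded, 11 rose after WT learning, with a median of 1.10. *Fos* rose by 1.97 (adjusted p = 0.000143 by limma) and *Egr4* by 1.26 (adjusted p = 9.1e-05 by limma), and *Egr2* and *Arc* rose by 1.90 and 1.69. The number that passed was 7 with GC corrected and 8 without the second WT_OL mouse. In KO_Basal against WT_Basal none of the 13 passed by limma, with a median of 0.41, and in KO_RL against WT_RL the median was 0.19.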

How the data were processed

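The authors aligned paired reads of 18 hippocampal libraries to mm10 with STAR 2.5.1, counted them on genes, and deposited 1 table of log2 values, TMM-normalized with edgeR 3.12.1. Their methods describe CPM floored at 1. Read as log2(CPM + 1), the scale used here, the deposited values of all 15329 genes and 18 libraries return whole reads. The margin was 0.01 of a read, and wider in proportion to the count for genes with many reads. Other scales were not compared in this way. The 6 genes and all lists were chosen with earlier results of these data known. Group means were fitted with limma 3.58.1 (R 4.3.3) as 1 mean per group over all libraries (eBayes with a variance trend, two-sided, Benjamini-Hochberg over 15329 genes), with exact permutation tests of 3 mice against 3 beside it. The fit was tested on simulated data. P-values are given for members only in contrasts that the choice did not use. Lists named up to 4 genes that passed with the largest change, otherwise up to 2. Positions and GC content come from GENCODE M21, and upstream windows from RefSeq. Alternatives were a floor at 1 CPM, a pseudocount of 0.25, a filter at a mean of 1 CPM, no variance trend, quantile normalization, limma-voom on recovered reads, a GC correction (loess span 0.5), a replicate block, the 6 libraries of a contrast alone, and leaving out each mouse. Reads per library ranged from 29248557 to 37915576, and libraries of a group differed by more than sampling noise (chi-square per gene of 8.82 to 105).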

Additional observations from a re-analysis of the deposited data

Results flagged for a closer look

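From untrained to original-learning mice, the group mean of *Prph* was higher among WT mice and lower among KO mice. All 3 WT_OL mice lay above all WT_Basal mice, and all 3 KO_OL mice lay below all KO_Basal mice. The groups hold different mice, so no change within a mouse was measured. The difference between these changes of group means (KO minus WT) was -1.84 on the log2(CPM + 1) scale. The same value is the difference between the genotype effects after original learning and without training. *Zmat1* showed such a split from untrained to reversal-learning mice, with a difference between the changes of -3.05. Its size depends on the third KO_RL mouse, which was at the low level. KO_RL stood at -1.11 from KO_Basal, and at -0.40 without that mouse. These differences were not tested, because the untrained groups chose the genes.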

How the results depend on the processing

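Of 180 recomputed values of the 12 tested differences of the 6 genes, 168 kept their direction and their side of the threshold. *Znrf1* in KO_RL against WT_RL passed with GC corrected and without the first WT_RL mouse, which gave 1 of the 6 genes called in each (over the mice left out, 0 to 1). *Prph* changed sign in KO_RL against WT_RL (-0.22 with CPM floored at 1, -0.31 and 0.34 as the range over the mice left out, and -0.02 without the second KO_RL mouse) and in KO_RL against KO_OL (-0.0764 floored, -0.17 to 0.19 over the mice left out). *Zmat1* changed sign in KO_RL against WT_RL (-1.11 to 0.0445 over the mice left out) and in KO_RL against KO_OL (-0.92 to 0.55). Genes called in KO_RL against WT_RL were 0, 1 with GC corrected and 0 to 59 over the mice left out. In KO_RL against KO_OL they were 3, 8 floored, 0 in the 6 libraries alone and 1 to 3 over the mice left out. In KO_Basal against WT_Basal they were 3, 5 floored, 7 in the 6 libraries alone and 0 to 4 over the mice left out. In WT_OL against WT_Basal they were 1457, 305 with GC corrected, 74 in the 6 libraries alone and 629 to 2496 over the mice left out. The causes were not tested. Of 42 untested differences 10 changed sign in some setting, none larger than 0.59.

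The replicate numbers name different mice, and same-numbered mice did not deviate together (correlations of -0.64 to 0.55 between groups). With a replicate block for this pairing 0 genes passed in KO_RL against WT_RL, 2 in KO_RL against KO_OL, 3 in KO_Basal against WT_Basal and 1377 in WT_OL against WT_Basal, and *Znrf1* in KO_RL against WT_RL had an adjusted p of 0.113 (limma). With 3 mice per group an exact permutation test cannot go below p = 0.1. Genes near 1 CPM, such as *Prph*, depend on the pseudocount: KO_Basal exceeded WT_Basal by 0.81, and by 1.21 floored and 1.25 with limma-voom.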
